A study of Mus musculus with 12 samples.

Results

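Transcripts of 10 genes that move serine and its one-carbon unit through the cell were followed in 3 lines of NSC-34 cells, a mouse motor neuron-like hybrid made by fusing neuroblastoma with embryonic spinal cord cells. The genes are 4 sideroflexins (Sfxn1, Sfxn2, Sfxn3 and Sfxn5) and 6 enzymes (Shmt1, Shmt2, Mthfd2, Mthfd1l, Mthfd1 and Phgdh). Sfxn1 was selected on its measured intensities on these same arrays, where it was high in both modified lines and near silent in the control, so its level against control cells is described here without a test, and the other 9 genes belong to its family or pathway. Of the 10 genes, 9 had a probe annotated to them, with 22 probes in all, and 8 had a probe bright enough to be tested among 11251 genes.

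Sideroflexins are proteins of the inner mitochondrial membrane. In human cells SFXN1 carries serine into the mitochondrial matrix. There SHMT2 splits serine into glycine and a one-carbon unit bound to folate, MTHFD2 oxidizes the unit, and MTHFD1L releases it as formate. In the cytosol MTHFD1 takes up the formate again for the synthesis of purines, thymidylate and methionine, and SHMT1 is the cytosolic counterpart of SHMT2. PHGDH begins the synthesis of serine from an intermediate of glycolysis, and in the brain it is found mainly in astrocytes and neural progenitors.

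The 12 arrays were 4 of NSC-34/shPGRN cells, a stable line in which a short hairpin RNA from the pRS vector lowers mouse PGRN (shPGRN cells, selected with puromycin), 4 of NSC-34/hPGRN cells, a stable line that expresses human PGRN from pcDNA3 (hPGRN cells, selected with G418), and 4 of vector control cells. The sources used here do not say which of these vectors is in the control cells, so differences between lines cannot be told apart from those of vector, selection or the stable line itself. Each array came from a separate culture of its line, plated at 200000 cells per flask and taken from 10% through 5% to 1% serum in steps of 24 h, with RNA isolated 24 h after the last step. The p-values therefore measure the spread between cultures of 1 line, not between independently made lines.

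Each array held 45281 probes, of which 19213 to 19665 were above background. A probe was above background when its deposited intensity exceeded a limit of 12.0 to 12.8, set from the values below the mode of that array. Across genes, arrays within a line had correlations of 0.988 to 0.996, and control replicate 4 had the lowest mean correlation within its line. Grn, which encodes PGRN, read 646, 635, 665 and 502.5 in shPGRN cells, 922, 1273, 1043 and 956 in hPGRN cells and 896, 899, 811 and 942 in control cells, for replicates 1 to 4. The arrays of shPGRN cells lay below all others, as their label says, and the probe is for the mouse transcript, so it does not measure the human PGRN of the other line. Of 13 motor neuron and cholinergic markers 11 had a probe and 7 were tested. Nefl was not above background on any array, and Chat, Mnx1 and Slc5a7 were above it on too few arrays to be tested. Of the tested markers Isl2, Lhx3 and Nefm passed in no comparison, and Isl1, Lhx1, Phox2a and Slc18a3 differed between lines. Isl1 read 1550 ± 197, 2242 ± 128 and 1063 ± 74.9 (SD, n = 4) in shPGRN, hPGRN and control cells and passed in all 3 comparisons, at 0.51 in shPGRN and 1.03 in hPGRN against control cells (limma adjusted p = 0.000869 and 2.27e-07). Lhx1, Phox2a and Slc18a3 fell in shPGRN against control cells, by 0.53, 0.53 and 0.51 (limma adjusted p = 0.000405, 0.000178 and 0.000629). That comparison called 6.87% of all genes lower and 7.34% higher. Between the modified lines all 4 genes were lower in shPGRN cells, as were 7.11% of all genes. Slc18a3 was dim, and its shPGRN arrays were all below background (1.23, -8.19, 4.93 and 4.89). Its control arrays read 28.5, 43.6, 35.3 and 19.1, and its hPGRN arrays 19.5, 20.8, 15.5 and 15.7. The Slc18a3 call between the modified lines held under only 14 of 22 alternatives. The summed intensity of this list was 4894 to 5775 in shPGRN cells, 7084 to 7528 in hPGRN cells and 6108 to 6434 in control cells. Most of it came from Phox2a (3024 to 3746, 4468 to 4706 and 4648 to 4963) and Isl1. That of 10 neuroblastoma markers with a probe was 8218 to 9477, 12002 to 14312 and 11478 to 12947. Of 9 tested genes 3 (Gata3, Dbh and Chga) were higher in shPGRN than in control cells, where 7.34% of all genes were called higher. Another 3 (Phox2a, Gata2 and Ddc) were lower, where 6.87% of all genes were, so these markers did not move in 1 direction there. Dbh was near background, with control arrays at 1.48, 15.8, -1.28 and 9.14. Between the modified lines 0 of the 9 were higher in shPGRN cells and 4 were lower. Of all genes 6.79% were higher and 7.11% lower in that comparison. Of 8 glial markers with a probe 1 (Mbp) was tested, and Sox10 and Olig2 were not above background on any array. The summed intensity of the glial markers was 84.2 to 109 in shPGRN cells, 43.9 to 73.4 in hPGRN cells and 67.3 to 83.9 in control cells, and the part of these 3 lists in the results was not tested.

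Sfxn1 was bright in both modified lines and dim in control cells. Its brighter probe read 1862, 1721, 1565 and 1553 in shPGRN cells (1675 ± 146, SD, n = 4 arrays). It read 2371, 1978, 2229 and 2150 in hPGRN cells (2182 ± 164). In control cells it read 44.2, 60.1, 43.0 and 41.9 (47.3 ± 8.58). Every array of the modified lines thus lay far above every control array, and the smallest ratio between any 2 arrays was 25.8 for shPGRN cells and 32.9 for hPGRN cells. The ratio of the means was 35.4 and 46.1.

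The second Sfxn1 probe gave the same picture at a lower signal. Its values were 1118, 1254, 1018 and 1204 in shPGRN cells (1148 ± 104), and 1498, 1622, 1541 and 1596 in hPGRN cells (1564 ± 55.8). The control arrays were at 38.8, 39.3, 37.5 and 51.4 (41.8 ± 6.46). The means stood 27.5 and 37.5 times above control. Probes of 1 gene differ in how well they bind, so the levels of the probes are not compared with each other.

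Sfxn1 was low in control cells but not absent. Both probes were above background on all 4 control arrays, at 3.78 and 3.34 times the limit. On the log2 scale used for testing, where an offset shrinks the folds of dim genes, the difference from control was 3.87 for shPGRN cells and 4.24 for hPGRN cells. In each comparison with control cells it was the largest change of all genes tested, in either direction, ahead of Magea2 at 2.81 and Gadd45g at 3.14. This rank is a description only, since Sfxn1 was selected on these same intensities. In these bulk samples fewer cells that express a gene and less RNA per cell cannot be told apart.

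The 2 modified lines also differed from each other. Sfxn1 was lower in shPGRN than in hPGRN cells on both probes, with no overlap of arrays. The limma log2 change was -0.37 (SE 0.09, adjusted p = 0.00893) for the brighter probe over all genes. For the second probe it was -0.43 (SE 0.09, limma adjusted p = 0.00286 over all 17540 probes, of which 11.2% were called). The first call was lost when values below the background limit were raised to it in place of the offset (limma adjusted p = 0.0777).

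**Figure D1:**
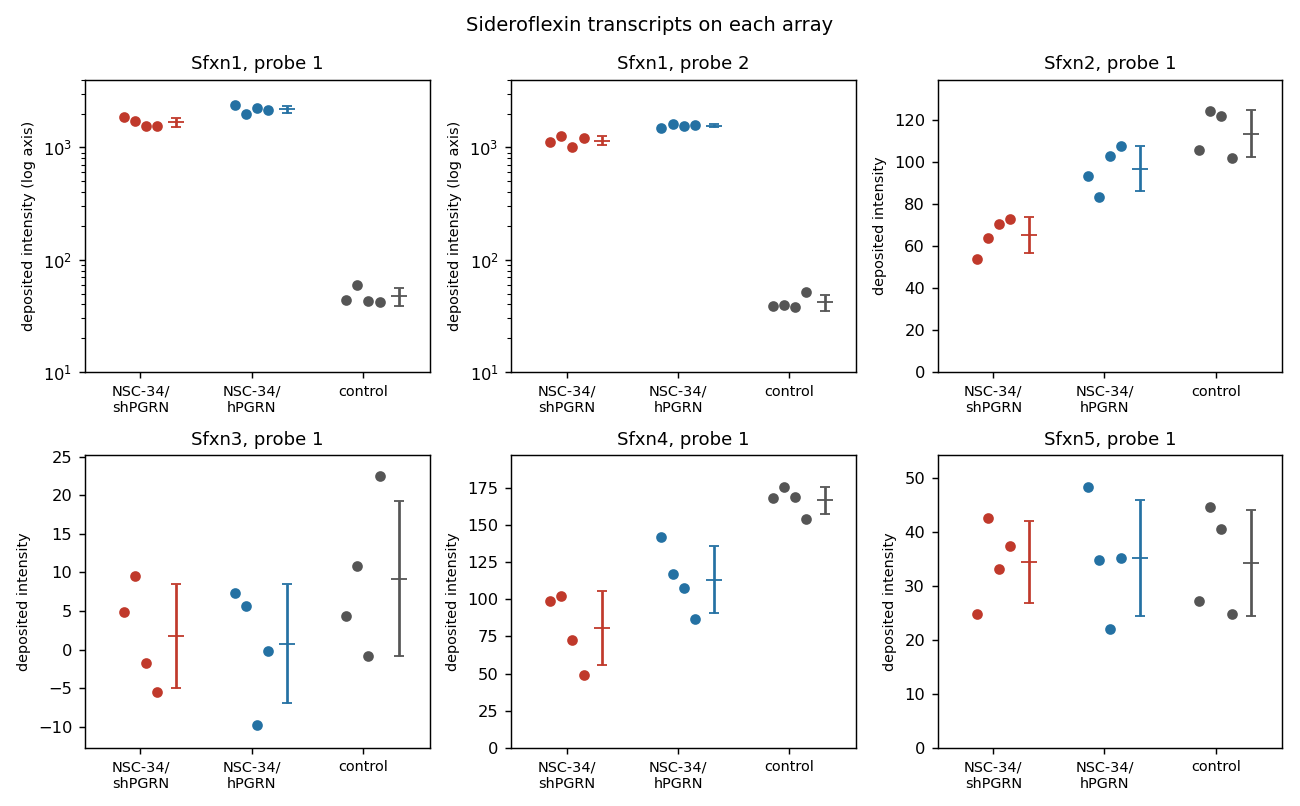
Deposited intensity (vertical axis, log scale for both Sfxn1 probes and linear for the others) of sideroflexin probes in shPGRN, hPGRN and control cells. Points are arrays in the order of replicates 1 to 4, and bars are the mean ± SD of 4 arrays. Sfxn1 lies at or above 1018 on every array of the modified lines and at most at 60.1 on every control array. Sfxn2 and Sfxn4 have their lowest means in shPGRN cells, where the Sfxn4 arrays overlap those of hPGRN cells, and Sfxn3 scatters around 0.

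Sfxn1 lies on mouse chromosome 13. The 5 nearest tested genes on each side were looked up in the RefSeq gene table to see whether the change extended along the chromosome. Of all genes, 14.2%, 6.96% and 13.9% were called in shPGRN against control, hPGRN against control and shPGRN against hPGRN cells. Only Gadd45g, a stress-induced gene of growth arrest and DNA demethylation, passed the threshold in any comparison among the 10. Its brighter probe read 409, 614, 451 and 431 in shPGRN cells and 669, 743, 722 and 717 in hPGRN cells. The control arrays were at 14.0, 23.8, 13.9 and 15.5, all just above background. Its limma log2 change was 2.61 (SE 0.10, adjusted p = 1.56e-14) in shPGRN cells and 3.14 (SE 0.10, adjusted p = 5.72e-16) in hPGRN cells, against control cells. Like Sfxn1, it was lower in shPGRN than in hPGRN cells (log2 change -0.53 ± 0.10 SE, limma adjusted p = 0.000915). Raising values to the background limit in place of the offset ended this last call (limma adjusted p = 0.0544). Over the 22 alternatives the changes against control cells ran from 1.73 to 4.84 in shPGRN cells and from 2.16 to 5.44 in hPGRN cells, and passed in all of them. A second Gadd45g probe was above background on every array of the modified lines, at 54.2 to 68.1 and 69.2 to 110, and on no control array.

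None of the genes between and around them passed. Gadd45g and Sfxn1 start 2.23 Mb apart, with 9 protein-coding genes between them, of which 2 were tested. Auh, a mitochondrial enoyl-CoA hydratase, read 27.6 ± 9.75, 27.8 ± 7.72 and 18.6 ± 9.43 (SD, n = 4) in shPGRN, hPGRN and control cells. Sptlc1, a subunit of the enzyme that joins serine to palmitoyl-CoA, read 566 ± 61.7, 558 ± 82.4 and 539 ± 65.5. On the far side of Sfxn1, the log2 fold change of Hrh2, Cplx2, Thoc3, Simc1 and 4833439L19Rik against control cells lay between -0.30 for Thoc3 (limma adjusted p = 0.169) and 0.24 for 4833439L19Rik (limma adjusted p = 0.277), in shPGRN and hPGRN cells in that order.

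**Figure D2:**
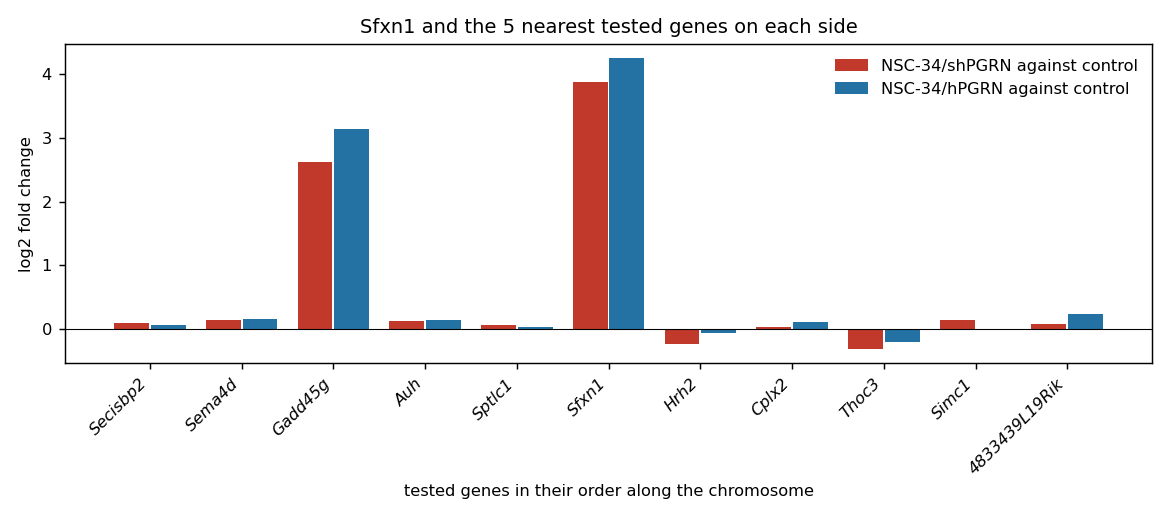
Log2 fold change against control cells (vertical axis) of Sfxn1 and the 5 nearest tested genes on each side, in their order along chromosome 13 (horizontal axis, not to scale), for shPGRN and hPGRN cells. Sfxn1 (3.87 and 4.24) and Gadd45g (2.61 and 3.14) stand out, while the 9 other genes lie between -0.30 and 0.24.

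Sfxn1 and Gadd45g were higher in both modified lines than in control cells, while Sfxn2 and Mthfd1 differed in shPGRN cells in opposite directions (below). The stretches of 250 bases before the start of these genes are shown. They are RefSeq sequences of build GRCm38.p6, all on the plus strand. Capitals mark 3 motifs searched on both strands: GGGCGG (the GC box), CACGTG (the E-box) and TGATGNAA (the composite element bound by ATF4, which acts in the amino acid response).
Sfxn1, chr13:54071595-54071844: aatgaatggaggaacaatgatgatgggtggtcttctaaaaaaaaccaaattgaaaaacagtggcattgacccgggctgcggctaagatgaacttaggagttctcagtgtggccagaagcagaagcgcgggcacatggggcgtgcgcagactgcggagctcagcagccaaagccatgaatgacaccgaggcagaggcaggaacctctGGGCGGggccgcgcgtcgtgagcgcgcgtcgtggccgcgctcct
Gadd45g, chr13:51846425-51846674: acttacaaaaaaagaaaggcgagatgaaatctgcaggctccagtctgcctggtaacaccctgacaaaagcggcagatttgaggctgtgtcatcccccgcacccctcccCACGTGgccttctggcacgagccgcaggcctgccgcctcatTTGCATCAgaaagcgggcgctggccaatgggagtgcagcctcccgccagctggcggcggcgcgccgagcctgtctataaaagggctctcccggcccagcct
Sfxn2, chr19:46573115-46573364: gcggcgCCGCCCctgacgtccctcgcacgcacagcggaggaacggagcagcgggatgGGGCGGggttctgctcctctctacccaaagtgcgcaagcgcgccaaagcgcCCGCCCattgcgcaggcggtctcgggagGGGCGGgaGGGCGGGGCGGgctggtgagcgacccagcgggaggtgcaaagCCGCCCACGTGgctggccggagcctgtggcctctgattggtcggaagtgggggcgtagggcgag
Mthfd1, chr12:76254982-76255231: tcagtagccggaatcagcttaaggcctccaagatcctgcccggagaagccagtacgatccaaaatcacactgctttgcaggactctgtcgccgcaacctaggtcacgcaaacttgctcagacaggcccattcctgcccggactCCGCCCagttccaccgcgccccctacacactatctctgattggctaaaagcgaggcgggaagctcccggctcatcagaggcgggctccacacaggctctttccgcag

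The Sfxn1 sequence held 1 GC box and neither of the other motifs. Gadd45g held 1 E-box and 1 ATF4 element, on the minus strand, and no GC box. The Sfxn2 sequence, with 73.2% G and C, held 7 GC boxes, some overlapping each other, and 1 E-box that overlaps the last of them. Mthfd1 held 1 GC box. None of the 10 genes had the ATF4 element in this window. Of 32851 mouse promoter windows of this length, 32.7% held the GC box, 6.02% the E-box and 3.45% the ATF4 element. A match describes the letters of the window only.

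Sfxn2, a sideroflexin linked to mitochondrial iron, was lowest in shPGRN cells. Its brightest probe read 53.8, 63.8, 70.7 and 73.1 in shPGRN cells and 93.6, 83.3, 103 and 108 in hPGRN cells. Control cells were at 106, 124, 122 and 102. The arrays of shPGRN cells lay below those of both other lines, which overlapped each other. Sfxn2 fell by 0.43 on the log2 scale against control cells (limma SE 0.09, adjusted p = 0.00164), and this call held under all 22 alternative settings. Against hPGRN cells the limma log2 change was -0.30 (SE 0.09, adjusted p = 0.0265), a call that was lost with the mean of the gene's probes (limma adjusted p = 0.241), without the filter on dim probes (0.0544), or without shPGRN replicate 1 (0.0903), hPGRN replicate 3 (0.0649) or hPGRN replicate 4 (0.0863). The other 2 bright probes of Sfxn2 had their lowest means in the same line, at 52.3 and 31.9 against 72.1 and 45.4 in control cells, without passing the threshold (limma adjusted p = 0.371 and 0.245 over probes, of which 11.5% were called). hPGRN and control cells differed by -0.14 (95% interval -0.32 to 0.05).

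The other sideroflexins were dim. Sfxn5, which has been linked to citrate transport, read 34.4 ± 7.55 in shPGRN cells, 35.1 ± 10.7 in hPGRN cells and 34.2 ± 9.75 in control cells (SD, n = 4). Its difference between shPGRN and control cells was 0.00 on the log2 scale, with a 95% interval of -0.20 to 0.21. None of the 4 probes of Sfxn3, which in human cells can stand in for SFXN1 as a serine carrier, exceeded background on more than 1 of the 12 arrays, with means between -4.19 and 9.17, so the gene was not tested. Mthfd1l has no probe annotated to it in the table used here.

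Sfxn4, the sideroflexin outside the 10 genes, takes part in iron-sulfur cluster and complex I assembly. Its brighter probe read 99.0, 102, 72.7 and 49.1 in shPGRN cells and 142, 117, 107 and 87.0 in hPGRN cells. In control cells it read 168, 176, 169 and 154, above every array of the modified lines. Against control cells it fell by 0.66 in shPGRN cells (limma SE 0.11, adjusted p = 0.000266) and by 0.37 in hPGRN cells (limma SE 0.11, adjusted p = 0.0460). The first call held under all 22 alternatives and the second under 9 of them. Between shPGRN and hPGRN cells the arrays overlapped and the log2 change of -0.29 did not pass (limma adjusted p = 0.0968). A second, dimmer probe averaged 21.6, 23.5 and 23.2 in shPGRN, hPGRN and control cells.

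Among the enzymes, Mthfd1 showed the clearest differences. Its values in shPGRN cells were 749.8, 887, 669 and 787 (773 ± 90.3, SD, n = 4). In hPGRN cells they were 483, 469, 521 and 409 (470.2 ± 46.6), and in control cells 627, 591, 591 and 486.5 (574 ± 60.7). The arrays of shPGRN cells lay above all others, while the other lines overlapped. Mthfd1 rose in shPGRN cells against control cells (log2 change 0.39 ± 0.10 SE, limma adjusted p = 0.0116) and against hPGRN cells (log2 change 0.64 ± 0.10 SE, limma adjusted p = 0.000123). Both calls held under all 22 alternatives.

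The second bright probe of Mthfd1 read 335, 262, 312 and 332 in shPGRN cells, 189, 237, 239 and 207 in hPGRN cells and 217, 264, 221 and 255 in control cells. shPGRN replicate 2 fell within the control arrays. Against hPGRN cells the difference passed the threshold (log2 change 0.40, limma adjusted p = 0.00899 over probes), and against control cells it narrowly did not (log2 change 0.29, limma adjusted p = 0.0532), passing without shPGRN replicate 2 (limma adjusted p = 0.0242) or control replicate 2 (0.0443). hPGRN cells stood at -0.25 against control cells (95% interval -0.46 to -0.04, limma adjusted p = 0.147).

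Shmt1, the cytosolic hydroxymethyltransferase, was lower in shPGRN cells than in control cells. Its brighter probe read 1129, 966, 1097 and 989.8 in shPGRN cells (1045 ± 79.6) and 1364, 1500, 1312 and 1169 in control cells (1336 ± 137), with no overlap. hPGRN cells overlapped both, at 1231, 1259, 1067 and 1370. The limma log2 change of shPGRN against control cells was -0.33 (SE 0.10, adjusted p = 0.0244). The call was lost without shPGRN replicate 2 (limma adjusted p = 0.0693) or 4 (0.0612), without control replicate 1 (0.0563) or 2 (0.0787), and with the background limit as a floor (0.0615). A second probe fell by 0.51 (limma adjusted p = 0.0215 over probes), but control replicate 4 read 439 there against 209 to 240 on the other control arrays, and without it the change was -0.32 (limma adjusted p = 0.0805). Nor did this probe pass without shPGRN replicate 2, which was its lowest array (-0.42, limma adjusted p = 0.0852).

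Shmt2, the mitochondrial counterpart, did not follow Shmt1. The brighter probe read 600.3, 729, 613 and 579.6 in shPGRN cells, 546, 481, 480.2 and 545 in hPGRN cells and 544, 594, 584 and 537 in control cells. The arrays of the modified lines did not overlap, yet their difference of 0.26 missed the threshold (limma SE 0.09, adjusted p = 0.0590). A second probe ran the other way, with means of 206 in shPGRN and 262 in hPGRN cells, so no direction is given for Shmt2. Against control cells the second probe stood at 0.12 in hPGRN cells (limma adjusted p = 0.766 over probes, of which 5.46% were called).

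Mthfd2, the mitochondrial dehydrogenase, passed in no comparison. Its brighter probe read 6613, 6504, 6386 and 6433 in shPGRN cells and 6670, 6631, 6411 and 7034 in hPGRN cells. In control cells it read 6487, 5423, 5606 and 6026. Its log2 difference from control cells was 0.14 (95% interval -0.04 to 0.32) in shPGRN cells. In hPGRN cells it was 0.18 (95% interval 0.01 to 0.36, limma adjusted p = 0.219). A second, dimmer probe averaged 766, 812 and 715 in shPGRN, hPGRN and control cells and passed in no comparison.

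Phgdh, at the start of serine synthesis, read 1316, 1246, 1519 and 1345 in shPGRN cells, 1453, 1185, 1390.2 and 1120 in hPGRN cells and 1282, 996, 1138 and 1905 in control cells. Control replicate 4 stood above all other arrays. With it, shPGRN and control cells differed by 0.06 on the log2 scale (95% interval -0.22 to 0.35), and without it by 0.24. Psat1, which follows Phgdh in serine synthesis, read 3777 ± 437, 4182 ± 300 and 4160 ± 208 (SD, n = 4) in shPGRN, hPGRN and control cells, with no call in any comparison. Psph, the last enzyme of that route, was not above background on any array.

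**Figure D3:**
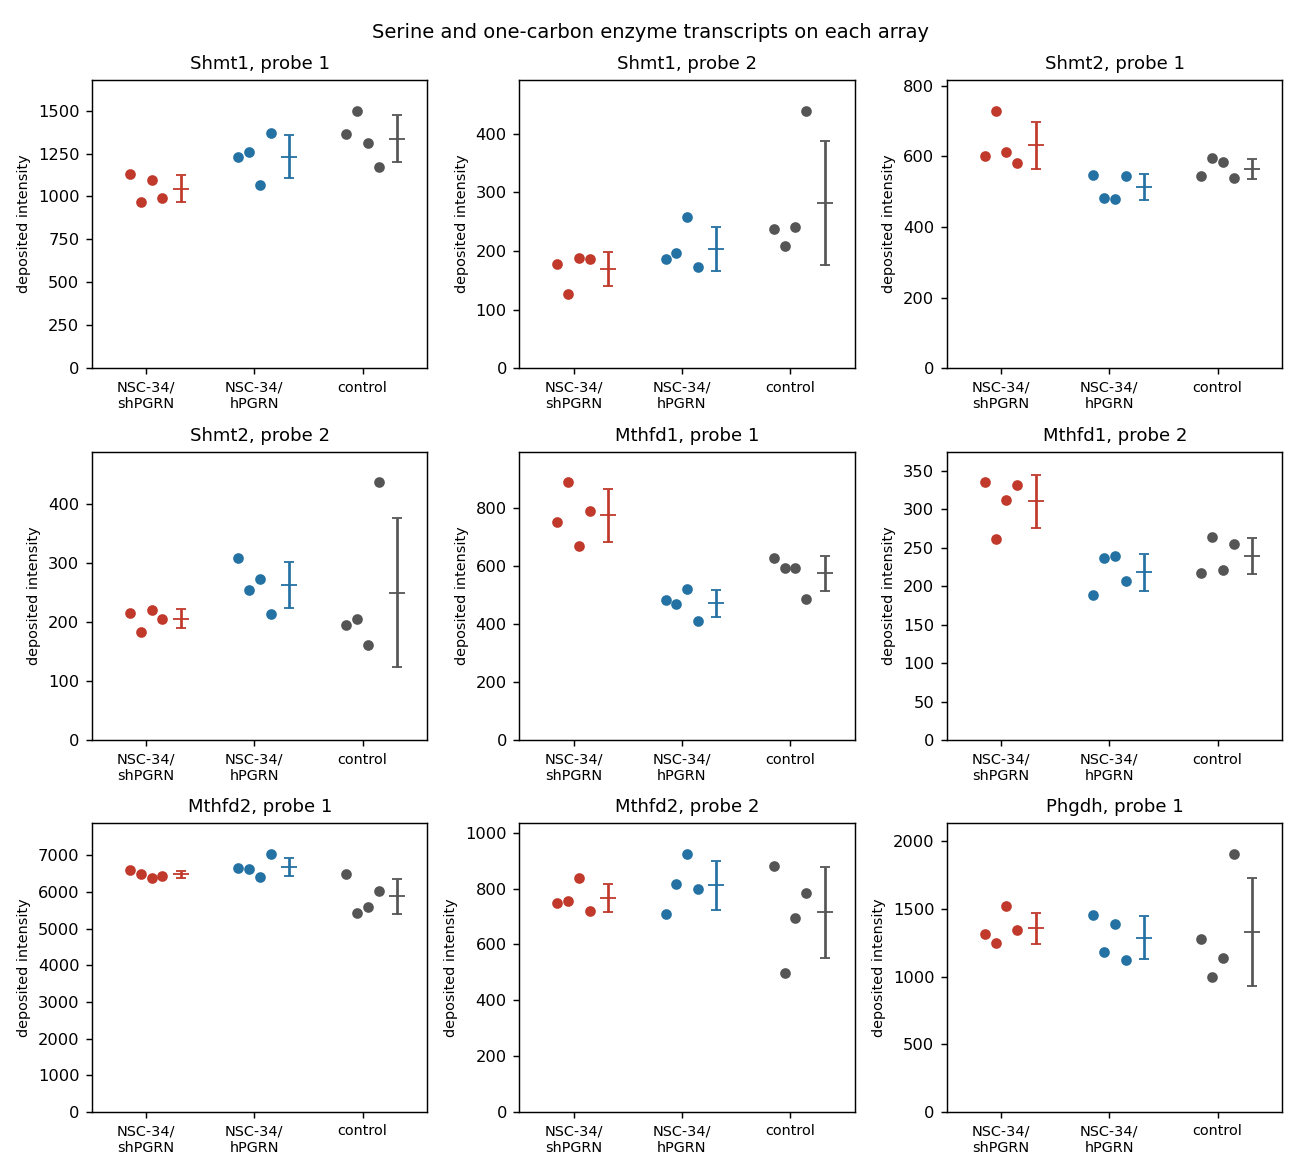
Deposited intensity (vertical axis, linear, from 0) of the bright probes of Shmt1, Shmt2, Mthfd1, Mthfd2 and Phgdh in the 3 lines. Points are arrays in the order of replicates 1 to 4, and bars are the mean ± SD of 4 arrays. Mthfd1 is highest in shPGRN cells on both probes, and control replicate 4 stands above the other control arrays for the second probes of Shmt1 and Shmt2 and for Phgdh.

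Sfxn1 aside, 7 of the genes could be counted against control cells. In shPGRN cells 1 of them rose (Mthfd1) and 2 fell (Sfxn2 and Shmt1), where 14.2% of all genes tested were called, 7.34% higher and 6.87% lower. The arrays of these 3 genes did not overlap, as was true of 18.1% of all genes. In hPGRN cells limma called none of the 7, with 2 at an unadjusted p under 0.05, where 6.96% of all genes were called (3.73% higher and 3.23% lower) and 20.4% had such an unadjusted p. None of the 7 had arrays wholly apart from the control arrays, against 12.9% of all genes. Between the modified lines 1 of 8 genes was higher in shPGRN cells (Mthfd1) and 2 were lower (Sfxn1 and Sfxn2), where 13.9% of all genes were called (6.79% higher and 7.11% lower). The arrays of 4 of the 8 did not overlap, against 19.3% of all genes. The median log2 difference of the genes counted was 0.06, -0.11 and -0.02 in the order of these comparisons, and that of all genes -0.00, -0.00 and 0.00. Both comparisons with control cells share the same 4 control arrays.

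**Figure D4:**
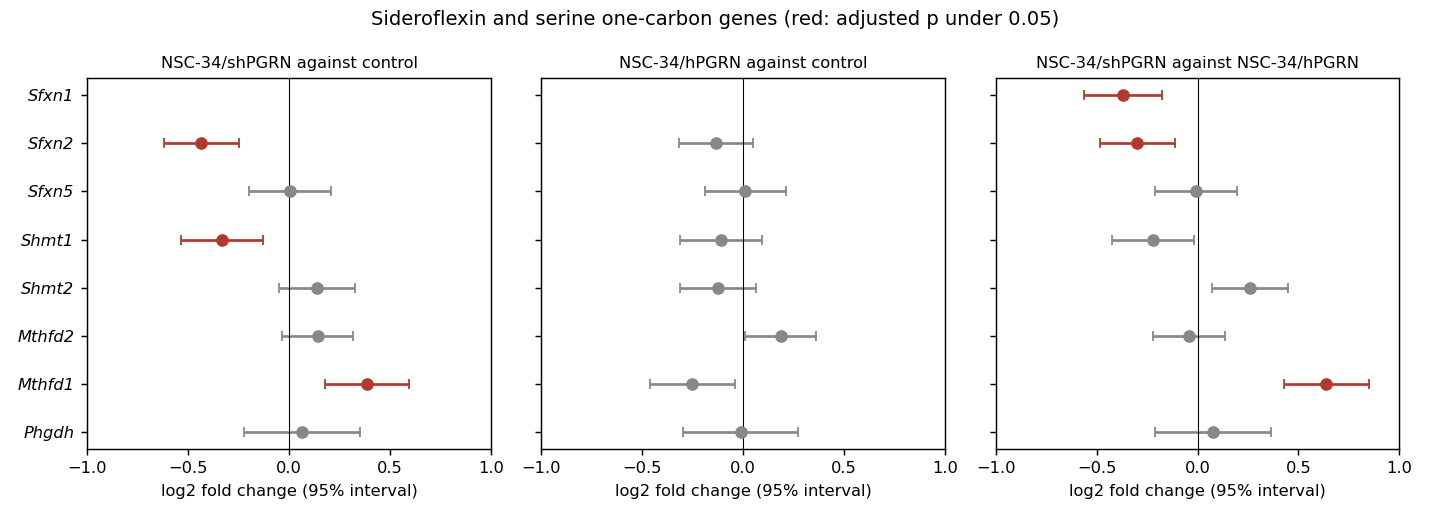
Log2 fold change (horizontal axis) with its 95% interval for the 8 tested genes in each comparison, from limma on 12 arrays, with adjusted p under 0.05 in red. Sfxn1 against control cells (3.87 and 4.24) is not drawn since it was not tested. Mthfd1 at 0.64 between the modified lines lies farthest from 0.

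Genes around the serine pathway were read from lists of transporters, folate enzymes and connected routes, whose counts stand against the shares of all genes called that are given above. Of 13 genes of serine supply and use 8 were tested, and 1 was called. Slc25a38, the mitochondrial glycine carrier of heme synthesis, read 1502, 1661, 1431 and 1603 in shPGRN cells and 1981, 2284, 1968 and 2072 in control cells, with no overlap. It fell by 0.41 (limma SE 0.09, adjusted p = 0.00500), and did so under all 22 alternatives. The median of this list was 0.05, 0.05 and -0.09 in shPGRN against control, hPGRN against control and shPGRN against hPGRN cells.

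Of the other mitochondrial folate genes 6 were tested. In shPGRN cells 1 was higher than in control cells (Gldc, the glycine decarboxylase, 1308 ± 63.1 against 1060 ± 120, limma adjusted p = 0.0322) and 1 lower (Dld, a subunit of the same cleavage system, 21.99 ± 17.9 against 47.7 ± 6.69, limma adjusted p = 0.0379). In hPGRN cells Aldh1l2, which oxidizes formyl-folate in mitochondria, was higher at 1998 ± 93.2 against 1458 ± 235 (limma adjusted p = 0.0247). These calls were fragile, and held under 12, 10 and 14 of 22 alternatives.

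Of the cytosolic folate genes 8 were tested. Slc19a1, the reduced folate carrier of the plasma membrane, read 1053, 1041, 1039 and 1075 in shPGRN cells, 735, 676, 669 and 652 in hPGRN cells and 687, 744, 708 and 750.5 in control cells. The arrays of shPGRN cells lay above all others. It rose by 0.50 against control cells (limma SE 0.08, adjusted p = 0.000177) and by 0.58 against hPGRN cells (limma SE 0.08, adjusted p = 4.23e-05), in all 22 alternatives. Atic, a late enzyme of purine synthesis that uses formyl-folate, was lower in hPGRN than in control cells (432 ± 33.6 against 595 ± 61.1, limma adjusted p = 0.0165), under 17 of 22 alternatives.

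In the methionine cycle and transsulfuration, 9 genes were tested. Ahcyl2, a relative of the enzyme that hydrolyzes S-adenosylhomocysteine, read 343, 275, 302 and 303 in shPGRN cells, 137, 162, 188 and 185 in hPGRN cells and 91.4, 130.4, 102 and 76.1 in control cells. The lines did not overlap, and it was the largest change of these lists. Its limma log2 change was 1.14 (SE 0.10, adjusted p = 6.24e-08) and 0.48 (SE 0.10, adjusted p = 0.00563) against control cells in shPGRN and hPGRN cells. Gss, glutathione synthetase, was dim and higher in shPGRN cells (47.2 ± 7.52) than in hPGRN (24.2 ± 3.13) and control cells (21.4 ± 6.30). The limma adjusted p was 0.0188 and 0.00784. The call against hPGRN cells was lost without shPGRN replicate 1 or hPGRN replicate 2 (limma adjusted p up to 0.0576).

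Of 6 purine synthesis genes tested, Ppat, the first committed enzyme, was higher in shPGRN cells (482 ± 16.8) than in hPGRN (361 ± 25.1) and control cells (359 ± 35.5, limma adjusted p = 0.00619). Adsl, which acts at 2 later steps, was lower in hPGRN cells (405 ± 62.5) than in shPGRN (584 ± 68.5, limma adjusted p = 0.00318) and control cells (538 ± 24.8, limma adjusted p = 0.0319, a call held under 13 of 22 alternatives). Of 11 genes of mitochondrial iron and heme tested, Alad, which makes porphobilinogen, was higher in shPGRN cells (2897 ± 234) than in control cells (1938 ± 104, limma adjusted p = 0.000529). Alas1, the first step of heme synthesis from glycine, was higher in hPGRN than in control cells (1760 ± 169 against 1386 ± 62.2, limma adjusted p = 0.0265), under 16 of 22 alternatives.

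The amino acid response, in which ATF4 raises genes of amino acid supply that include Phgdh, Psat1, Shmt2 and Mthfd2, had 13 genes tested beside them. Against control cells 5 rose in shPGRN cells, where 7.34% of all genes did, at a list median of 0.25. Ddit3, which encodes the stress factor CHOP, read 1805, 1965, 1885 and 1757 there and 997, 742, 949 and 1231 in control cells (log2 change 0.89 ± 0.11 SE, limma adjusted p = 5.72e-06). Cebpb, a related transcription factor, was at 645, 783, 751 and 549 against 388, 306, 368 and 379 (log2 change 0.80 ± 0.11 SE, limma adjusted p = 1.60e-05). Neither gene overlapped between these lines, and Nupr1, Sesn2 and Cebpg also passed, at 0.42, 0.42 and 0.34. With the mean of a gene's probes Sesn2 was at 0.23 (limma adjusted p = 0.0674) and Cebpg at 0.06 (limma adjusted p = 0.650). These 2 calls thus rest on the brightest probe. Atf4 itself (log2 change 0.13, limma adjusted p = 0.468), Asns and Trib3 did not pass. Asns read 9107 to 9734 in shPGRN and 9245 to 10220 in control cells, and Trib3 1171 to 1412 and 1148 to 1530. In hPGRN cells 2 genes rose (Cebpb and Slc7a11) and 1 fell (Chac1), where 3.73% and 3.23% of all genes did. Between the modified lines 4 were higher in shPGRN cells (Ddit3, Chac1, Stc2 and Cebpb), where 6.79% of all genes were. The calls of Slc7a11 and Chac1 in hPGRN cells held under 16 and 11 of 22 alternatives, and that of Cebpb between the modified lines under 12. Phgdh, Psat1, Shmt2 and Mthfd2 themselves passed in none of these comparisons.

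**Figure D5:**
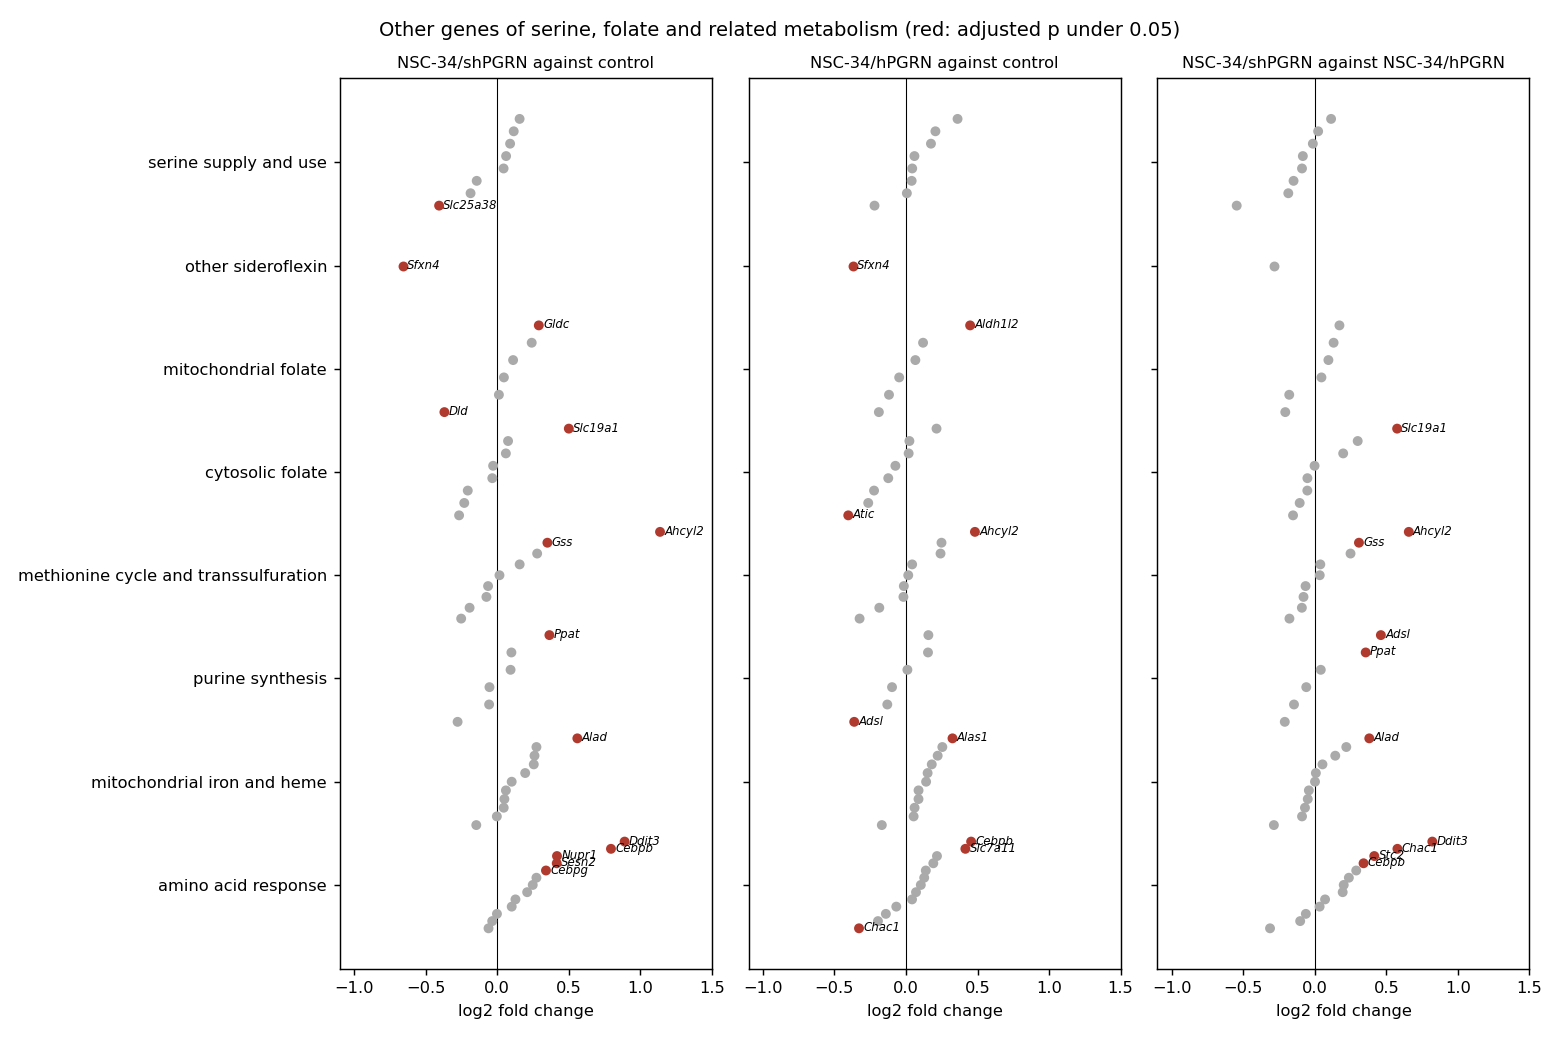
Log2 fold change (horizontal axis) of each tested gene of 8 lists (vertical axis) in the 3 comparisons, with adjusted p under 0.05 in limma in red and named. Ahcyl2 at 1.14 and Ddit3 at 0.89 lie farthest to the right in shPGRN against control cells, and Sfxn4 at -0.66 farthest to the left.

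Genes of proliferation, with which one-carbon enzymes are known to vary, were read beside them. Of 12 tested, 3 were lower in shPGRN than in control cells (Mcm6, Mcm5 and Mcm7, subunits of the replicative helicase), where 6.87% of all genes were called lower. In each of the other comparisons 1 was lower (Mcm6 in hPGRN against control cells and Mcm5 between the modified lines). Of all genes 3.23% and 7.11% were called lower in these comparisons, in that order. The calls of Mcm5 and Mcm6 in shPGRN against control cells held under all 22 alternatives and that of Mcm7 under 11, with a limma adjusted p of up to 0.158. The calls in the other comparisons held under 20 for Mcm6 and 14 for Mcm5. The summed intensity of the list was 18227 to 19964 in shPGRN cells, 19078 to 21792 in hPGRN cells and 20533 to 22473 in control cells. Its part in the results was not tested.

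The genes most like Sfxn1 over the 12 arrays were Smap2, Gadd45g, Magea8, Fbxw17 and Erdr1, with a Pearson correlation of log2 values of 0.986 to 0.992. These values are descriptions and stem mostly from the difference between control cells and the rest, since with line means removed they were -0.33 to 0.63. Magea8, a cancer-testis antigen gene, read 640.2 ± 68.0, 685 ± 72.6 and 46.5 ± 16.9 (SD, n = 4) in shPGRN, hPGRN and control cells, and Erdr1 826 ± 75.5, 914 ± 69.0 and 212 ± 35.3. Smap2 was at 1211 ± 19.9, 1282 ± 41.4 and 575 ± 44.8, and Fbxw17 at 448 ± 40.9, 451 ± 10.4 and 189.8 ± 20.1. The most opposite genes were Stc1, Ppfibp2, F2rl2, Cngb1 and Ddx47, at -0.97 to -0.94. Stc1 (stanniocalcin, a secreted hormone) was at 136 ± 15.3 in control cells and above background on 1 of 4 arrays in each modified line. None of the other 7 tested serine and sideroflexin genes was among either group.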

How the data were processed

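RNA of the 12 cultures was hybridized to Illumina mouse BeadChips. The authors deposited linear intensity values, already background-subtracted and equally distributed on all arrays, with 31.7% to 31.8% of values below 0. Their methods name lumi, FlexArray and an empirical Bayes test. No source used here gives the steps behind this table. A table of non-normalized signals with 24 columns was not used, since their names match no sample.

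Values were corrected with normexp (offset 50), quantile normalized and put on a log2 scale, which turns a deposited 0 into 72.2 and shrinks folds of dim genes. Probes were named through the platform annotation (34885 with 1 symbol, 18 with several and 10378 with none; 34807 matched RefSeq by Entrez ID). Probes above background (p under 0.05) on 4 or more of 12 arrays were kept, and each gene took its brightest one. limma 3.58.1 (R 4.3.3) was fitted to the 3 lines and 12 arrays together, with Benjamini-Hochberg adjustment over 11251 genes (threshold 0.05), and checked on simulated data. Precision is limited by the 4 arrays per line.

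The 10 genes and the lists were chosen with earlier results of these data known. Named genes are the 10 with every kept probe, Grn, Sfxn4, Psat1, Psph and at most 4 called genes per list and comparison. Of the 10 genes, probes that were not kept are described only for Sfxn3. Atf4, Asns, Trib3, Cebpg, Gata2, Gata3, Dbh, Ddc and Chga were added after their values were seen. The 5 genes on each side of Sfxn1 and the 5 most and least correlated with it are also named. Sds, Sdsl and Mat2a have no probe annotated to them in the table used here. Fits of every list gene under all alternatives, and of every probe without each array, were added after seeing the data.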

Additional observations from a re-analysis of the deposited data

Results flagged for a closer look

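Of 45 sets of 4 arrays (each kept probe of the 10 genes in each line), 5 held an array far from the other 3, where chance gives about 1 in 20. In control cells the brighter Sfxn1 probe read 60.1 in replicate 2 against 41.9 to 44.2 in the others, and the second Sfxn1 probe read 51.4 in replicate 4 against 37.5 to 39.3. Both lie far below every array of the modified lines. The second Shmt1 probe read 127 in replicate 2 of shPGRN cells against 178 to 187, and 439 in replicate 4 of control cells against 209 to 240. The second Shmt2 probe read 436 in the same control replicate against 161 to 205. Without control replicate 4 this Shmt2 probe was higher in hPGRN than in control cells (log2 change 0.36, limma adjusted p = 0.0494 over probes), while with it the value was 0.12 (limma adjusted p = 0.766).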

How the results depend on the processing

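Alternatives changed 1 choice at a time among the correction and scaling of intensities, the filter on dim probes, which probe stands for a gene, which arrays are fitted, array weights and a replicate block, and each array was left out in turn. The number of the genes past the threshold was 3 in shPGRN against control cells and 2 to 3 with an array left out, and 3 and 2 to 3 between the modified lines. It was 0 in hPGRN against control cells, 0 with any array left out, and 1 with array weights (Mthfd1 at -0.31, limma adjusted p = 0.0451). Of the single log2 fold changes outside the arrays left out, 222 kept direction and call, 8 values of Sfxn1 against control moved, 4 calls were lost, 3 were gained and 3 turned direction. The Sfxn1 values moved with the correction, up to 5.16 and 5.54 with the background limit as a floor. Shmt2 turned to -0.002068 against control cells and to -8.364e-05 between the modified lines with the mean of its probes, and Sfxn5 to -0.02767 in shPGRN against control cells with array weights. Shmt2 passed between the modified lines with a filter on all 4 arrays of a line (limma adjusted p = 0.0424) and with array weights (0.0494). The cause was not tested. With an array left out, Sfxn5 ranged from -0.03854 to 0.05049, -0.04746 to 0.07092 and -0.0663 to 0.05208 in shPGRN against control, hPGRN against control and shPGRN against hPGRN cells, and Phgdh from -0.0536 to 0.24, -0.13 to 0.17 and 0.02 to 0.13.

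Over all genes, 783 were called in hPGRN against control cells, but 502 with the background limit as a floor and 516 without hPGRN replicate 4 or without control replicate 3.

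Equal replicate numbers in different lines did not mark similar arrays (correlations of -0.159 to 0.128 over 12 pairs with line means removed, 2 of them over 0.1, and 3 of 12 arrays closest to their own number), so no pairing was used. With the replicate number as a block the counts were 3, 0 and 3, as without it, over 1484, 682 and 1434 calls among all genes, and no call of the 8 genes changed. With 4 arrays per line and signals under 50 for Sfxn5, small changes of dim genes could not be resolved.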
